A study of Mus musculus with 53 samples.

Results

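The genes described are 7 surface molecules through which macrophages signal to T cells: the PD-1 ligands Cd274 (PD-L1) and Pdcd1lg2 (PD-L2), the CD28 and CTLA-4 ligands Cd80 and Cd86, the ICOS ligand Icosl, the receptor Cd40, and Cd276 (B7-H3). They were taken by gene symbol, and each matched 1 of the 23847 loci in the expression tables. All 7 were among the 11146 loci tested, which reached at least 1 FPKM (fragments counted per kilobase of a transcript, relative to all mapped fragments) in at least 1 sample. Macrophages were grown for 6 days from the bone marrow of WT and Stat6-/- mice (bone marrow-derived macrophages, BMDMs) in the supernatant of L929 cells, a fibroblast line used as a source of M-CSF. The Stat6-/- mice were full-body knockouts, both genotypes were on the C57BL/6 background, and mice were 8 to 12 weeks old. IL-4, a type 2 cytokine, was added at 20 ng/ml, and cells were taken after 1, 3, 6 and 24 h beside untreated controls of the same times and of 0 h. The 53 samples formed 18 groups. Each of the 8 WT groups other than 24 h of IL-4 held 4 samples, WT with 24 h of IL-4 held 3 (replicates 2, 3 and 4), and each of the 9 Stat6-/- groups held 2.

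PD-L1 and PD-L2 bind PD-1 on activated T cells and dampen their response. CD80 and CD86 give T cells the costimulatory signal through CD28 and an inhibitory one through CTLA-4, ICOS ligand costimulates through ICOS, and CD40 receives the CD40 ligand signal that helper T cells deliver to antigen-presenting cells. IL-4 signals through JAK kinases to the transcription factor STAT6, which binds palindromic TTC and GAA half-sites, and PD-L2 is a long-known feature of macrophages polarized with IL-4.

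Cd274 and Pdcd1lg2 lie next to each other on the plus strand of chromosome 19, and their start regions are shown because these were the members called after 1 h of IL-4. Cd274 spans chr19:29367438-29388094 and Pdcd1lg2 spans chr19:29410919-29472927 (mm10, positions as in the expression tables, counted from 1), with 22824 bases between them. The 250 bases before each start (RefSeq, GRCm38.p6, plus strand, chr19:29367188-29367437 and chr19:29410669-29410918) are given 5′ to 3′, with capitals marking TTC and GAA separated by any 4 bases, the spacing preferred by STAT6.
Cd274: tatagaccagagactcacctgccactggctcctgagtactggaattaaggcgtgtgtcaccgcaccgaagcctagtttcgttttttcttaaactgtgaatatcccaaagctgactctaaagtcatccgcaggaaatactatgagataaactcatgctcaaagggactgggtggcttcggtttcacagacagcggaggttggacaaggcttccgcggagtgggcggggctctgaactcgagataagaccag
Pdcd1lg2: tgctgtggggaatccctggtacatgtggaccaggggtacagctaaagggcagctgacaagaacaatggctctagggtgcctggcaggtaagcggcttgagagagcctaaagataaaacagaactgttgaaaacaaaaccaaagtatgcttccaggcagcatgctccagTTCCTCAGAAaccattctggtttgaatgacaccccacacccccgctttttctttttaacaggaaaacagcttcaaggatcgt
The Pdcd1lg2 window held 1 match, TTCCTCAGAA, which began at position -82 relative to the gene start. Promoter windows of 250 bases before and 50 after the start were at hand for 5 of the members. Of these 5, only that of Pdcd1lg2 held this motif, which occurred in 6.95% of 32851 mouse promoter windows of the same length. None of the 5 held TTC and GAA separated by 3 bases (8.30% of all windows) or GAAA and GAAA separated by 2 bases (3.44% of all windows), all searched on both strands. These matches describe letters in a window and are not binding sites. For Cd276 the window was placed at a start of chr9:58555033, upstream of 58540940, where its minus-strand locus in the expression tables begins. The start of that locus was not searched.

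The other members were spread over the genome. Cd80 (chr16:38458933-38486932, plus strand) and Cd86 (chr16:36603869-36666077, minus strand) were both on chromosome 16. Cd40 was at chr2:165055636-165071654 (plus strand), Icosl at chr10:78069368-78079525 (plus strand) and Cd276 at chr9:58524300-58540940 (minus strand). All 7 were protein-coding in GENCODE vM21. The library kit did not mark strand, so reads of a gene and of an antisense neighbour cannot be told apart. Of the 50-base words in the transcripts of Cd274, 12.43% also occurred in another gene, most often AC119228.1, an antisense gene within it. For Cd276 the share was 9.92%, most often with Gm10657. For Cd40 it was 0.50%, and for the other 4 members it was 0.

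Stat6 itself was between 14.3 and 24.0 FPKM in the 18 Stat6-/- samples and between 58.7 and 90.6 FPKM in the 35 WT samples, without overlap. Reads of the locus thus remained in all Stat6-/- samples. Macrophage markers summed to 2590 to 4250 FPKM over 5 genes in the 53 samples, whereas T cell markers summed to at most 0.361 FPKM and B cell markers to at most 0.748 FPKM over 4 genes each. The dendritic cell markers Flt3 and Zbtb46 stayed below 1 FPKM in all 53 samples, and the whole list of 6 summed to 0.710 to 8.20 FPKM. Fibroblast markers (4 genes) summed to 0.105 to 0.986 FPKM. The 3 neutrophil markers in the tables summed to 187 to 922 FPKM, with S100a8 and S100a9 contributing most. Relative depth, recovered from loci with few fragments, ranged from 0.707 to 1.554 of the median sample. In these bulk samples, fewer cells with a transcript and less transcript per cell cannot be told apart.

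One feature of the Stat6-/- libraries touches the results below. Replicate 2 was higher than replicate 1 for Cd86, Cd40 and Icosl in each of the 9 Stat6-/- groups, by median ratios of 2.17, 2.31 and 1.90. For Cd80 the median ratio was 1.34, again higher in 9 of 9 groups, and for Cd274, Pdcd1lg2 and Cd276 it was 1.10, 0.805 and 1.01. A median difference of at least 0.5 on the log2(FPKM + 1) scale toward replicate 2 was found for 7.08% of the tested loci and for 3 of the 7 members. The dendritic cell marker list was also higher in replicate 2, with sums of 3.92 to 8.20 FPKM against 1.96 to 4.56 FPKM in replicate 1, mainly through Ccr7 (median 3.95 against 0.946 FPKM). The B cell list summed to 0.273 to 0.748 FPKM in replicate 2 and 0.0153 to 0.252 FPKM in replicate 1, with Pax5 at a median of 0 in both. The part of these marker genes in the offset was not tested. Values with each Stat6-/- replicate alone are given for some results below. Each Stat6-/- group is then 1 library whose spread can only be taken from the other groups, so these values are given without a test.

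**Figure D1:**
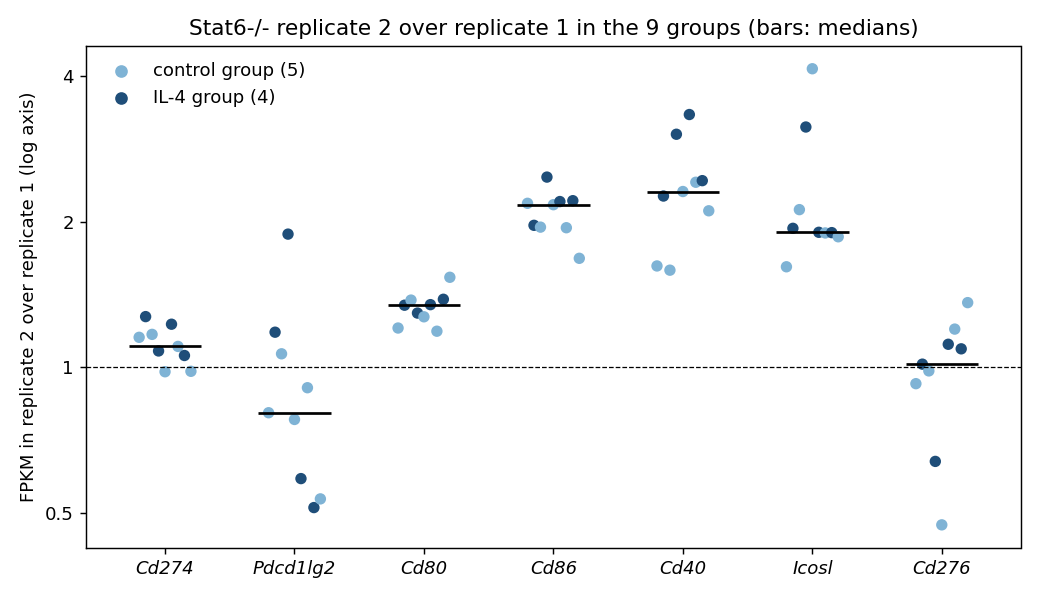
Ratio of FPKM in Stat6-/- replicate 2 to replicate 1 (vertical log axis) for each member (horizontal axis) in the 5 control and 4 IL-4 groups, with bars at the medians. Cd86, Cd40 and Icosl lie at or above 1.59 in all 9 groups, while Cd274 and Cd276 scatter around 1.

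Cd274, which encodes PD-L1, was the most abundant member in every one of the 18 groups and rose within 1 h of IL-4 in WT cells. In controls it stood at 30.5, 27.9, 30.1 and 35.9 FPKM at 1 h and with IL-4 at 95.8, 90.9, 72.8 and 88.0 FPKM. At 3 h the controls read 24.4, 22.1, 20.6 and 27.3 FPKM and the IL-4 samples 120.2, 118, 98.7 and 113 FPKM. Every treated sample was above every control at both times. The mean was 2.79-fold higher at 1 h (log2 change 1.45, SE 0.104, adjusted p = 4.68e-14) and 4.77-fold higher at 3 h (log2 change 2.21, SE 0.104, adjusted p = 5.08e-20). Unless stated otherwise, a log2 change is IL-4 minus time-matched control on the log2(FPKM + 1) scale, and a gene is called where it is at least 1 in size with an adjusted p under 0.05 (limma, Benjamini-Hochberg).

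At 6 h Cd274 was at 112, 104, 102 and 98.3 FPKM with IL-4 and at 25.3, 18.8, 21.4 and 25.5 FPKM in controls (4.57-fold, log2 change 2.15, adjusted p = 8.36e-20). By 24 h most of the increase was gone. The 3 treated samples held 43.1, 50.1 and 50.6 FPKM and the 4 controls 34.5, 30.4, 30.8 and 36.9 FPKM, still without overlap. The 1.45-fold difference passed the test but not the 2-fold limit (log2 change 0.52, SE 0.113, adjusted p = 0.000183). The response at 3 h exceeded that at 1 h (difference 0.76, adjusted p = 0.000309), that at 6 h did not differ detectably from 3 h (difference -0.06, 95% confidence interval -0.36 to 0.24), and that at 24 h was lower than at 6 h (difference -1.63, adjusted p = 8.4e-11).

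Pdcd1lg2, which encodes PD-L2, was the lowest member in all controls and showed the largest response of the members from 3 h on. The 20 WT controls held a mean of 0.211 FPKM, below which lay 1.1% of the tested loci. After 1 h of IL-4 the samples reached 1.504, 1.38, 1.81 and 1.96 FPKM, against 0.138, 0.131, 0.219 and 0.198 FPKM in controls. At 3 h they were at 17.5, 16.2, 16.9 and 22.7 FPKM and at 6 h at 38.9, 33.9, 36.5 and 34.7 FPKM. The controls at these times were between 0.0932 and 0.261 FPKM, so no sample of 1 group came near the other. At 24 h the treated samples held 12.9, 14.4 and 16.2 FPKM and the controls 0.349, 0.270, 0.387 and 0.336 FPKM, which still kept the groups far apart.

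The ratios of the means were 9.71, 134, 189 and 43.1 in the order of time. On the log2(FPKM + 1) scale, which understates changes from so low a level, the changes were 1.18, 4.08, 4.96 and 3.53 (SE 0.0768, 0.0768, 0.0768 and 0.0829, adjusted p = 2.36e-15, 6.66e-33, 4.59e-36 and 1.16e-29). Among all tested loci these changes ranked 96, 11, 9 and 23 from the top. Pdcd1lg2 was the only member whose response at 6 h passed the test against that at 3 h (difference 0.88, adjusted p = 8.04e-07), though with a pseudocount of 0.1 in place of 1 it did not (0.68, adjusted p = 0.181), and Cd86 passed as well when only the samples compared were fitted (0.67, adjusted p = 0.00461). With that pseudocount the changes from control were 2.70, 6.29, 6.97 and 5.07. Its response was lower at 24 h than at 6 h (difference -1.43, adjusted p = 9.95e-13). The low values rested on few but whole fragments. A single fragment was worth 0.0075 FPKM at the median depth, and the 38 samples below 0.5 FPKM held 11 to 59 fragments each, all within 0.1 of a whole number.

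Because both ligands are per-length values from the same sample, their ratio can be read directly. In WT controls the Pdcd1lg2 value was a median of 0.0051 to 0.0102 of the Cd274 value, depending on time. With IL-4 the median ratios were 0.0190, 0.158, 0.350 and 0.299 after 1, 3, 6 and 24 h. In the Stat6-/- samples it stayed between 0.00361 and 0.0124. PD-L1 transcript thus exceeded PD-L2 transcript in every sample, and the IL-4 samples from 3 h on stood apart from all others.

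**Figure D2:**
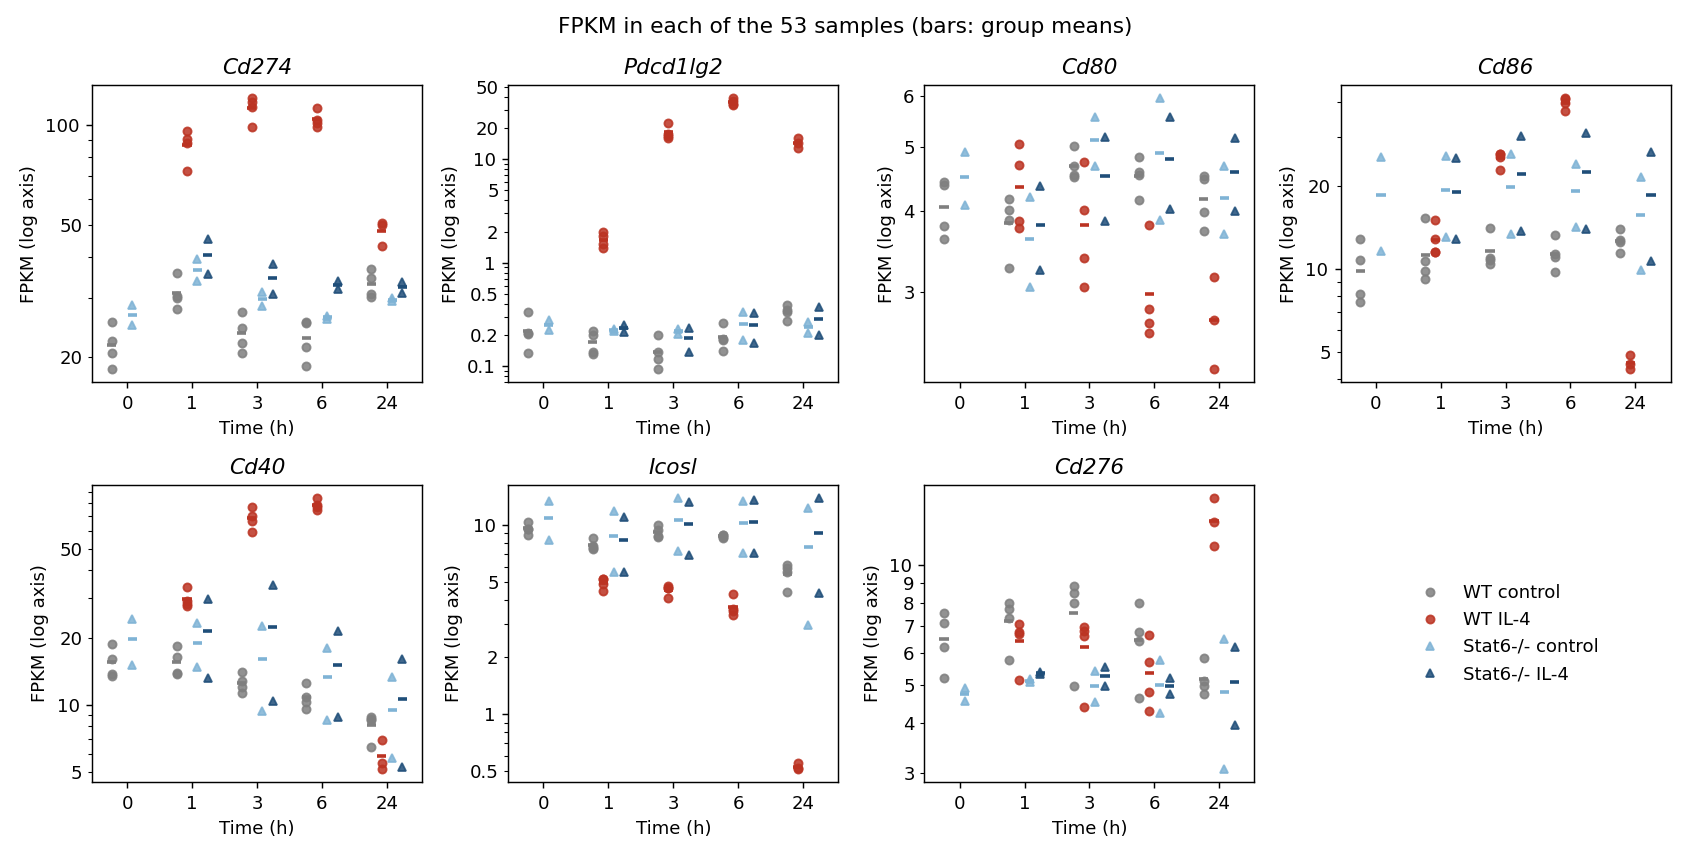
FPKM (vertical log axis) of each member in all 53 samples by time (h), with bars at the group means. WT IL-4 samples of Cd274, Pdcd1lg2, Cd86 and Cd40 peak at 3 or 6 h, Icosl is lowest and Cd276 highest in the 3 WT samples with 24 h of IL-4, and the Stat6-/- samples of Cd86, Cd40 and Icosl split by replicate.

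Of the 10 loci starting within 250 kb of Cd274 or Pdcd1lg2, the ligands included, 7 were tested. Beside the 2 ligands, which defined the region, 3 of the other 5 were called in WT at 3 h, Jak2, Insl6 and C030046E11Rik, where 3.88% of all tested loci were called. Jak2, which encodes a kinase of cytokine receptors, went from 11.04 to 38.1 FPKM at 3 h (log2 change 1.70, adjusted p = 1.56e-17). The relaxin-family gene Insl6 went from 15.8 to 42.6 FPKM (log2 change 1.37, adjusted p = 1.62e-11), and C030046E11Rik from 5.26 to 13.9 FPKM (log2 change 1.25, adjusted p = 1.19e-11). These 3 had log2 changes of 1.76, 1.49 and 1.23 at 6 h and of 0.71, 0.46 and 0.42 at 24 h. Plgrkt, which codes for a plasminogen receptor and lies between Insl6 and Cd274, passed the test at 3 and 6 h with log2 changes of 0.64 and 0.66. Ermp1, at the far end, had log2 changes of -0.37 at 6 h and -0.42 at 24 h (adjusted p = 0.00783 and 0.00451). Rln1, Mir101b and A930007I19Rik were too low to test.

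**Figure D3:**
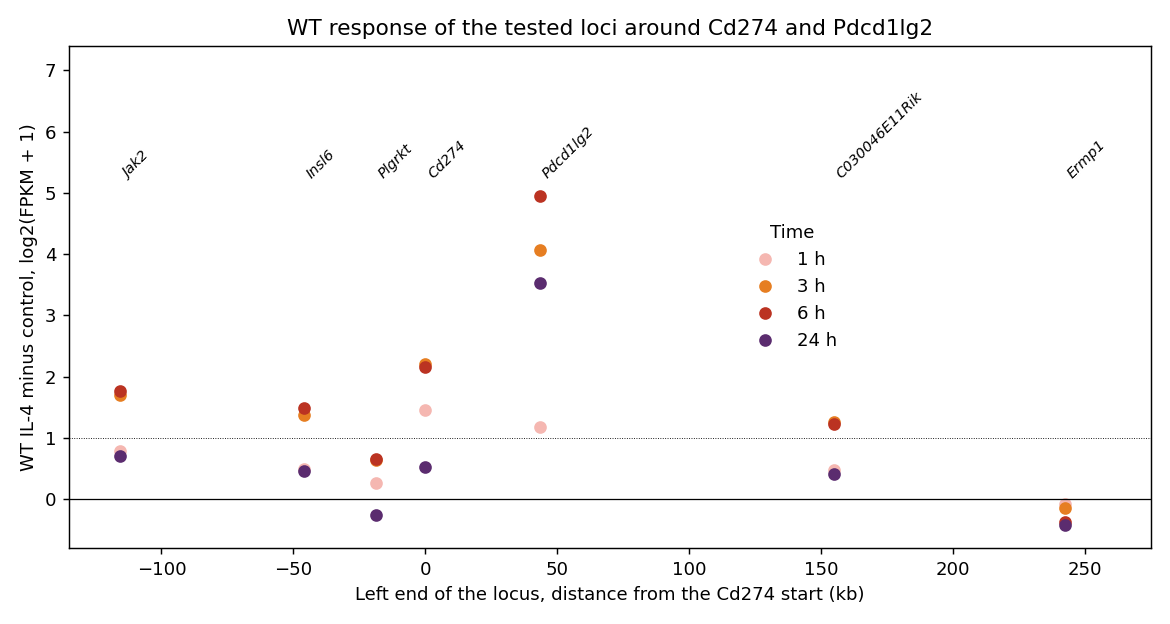
WT response to IL-4 (log2(FPKM + 1), vertical axis) of the 7 tested loci around the PD-1 ligands against the distance of their left end from the Cd274 start (kb), by time. Jak2, Insl6, Cd274, Pdcd1lg2 and C030046E11Rik lie above the dotted 2-fold line at 3 and 6 h, Plgrkt lies below it and Ermp1 lies under 0.

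Cd86 and Cd80 bind the same pair of T cell receptors but moved differently in WT cells. Cd86 was 25.3, 26.1, 22.8 and 26.1 FPKM at 3 h of IL-4 and 41.3, 41.1, 39.6 and 37.2 FPKM at 6 h. The matching controls were 10.98, 14.1, 10.8 and 10.4 FPKM and 11.04, 13.3, 11.3 and 9.72 FPKM. All treated samples lay above all controls, by 2.17-fold at 3 h (log2 change 1.06, SE 0.271, adjusted p = 0.0022) and 3.51-fold at 6 h (log2 change 1.73, SE 0.271, adjusted p = 1.72e-06). At 1 h the groups overlapped (12.7 ± 1.67 against 11.2 ± 2.73 FPKM, SD, n = 4 each, adjusted p = 0.798).

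At 24 h the order of Cd86 was turned around. The treated samples were at 4.36, 4.52 and 4.89 FPKM and the controls at 12.5, 13.9, 12.8 and 11.4 FPKM, so that all treated samples were below all controls (controls 2.76-fold higher, log2 change -1.29, SE 0.293, adjusted p = 0.000333). The response at 24 h differed from that at 6 h by -3.02 on the log2 scale (adjusted p = 1.79e-07), which ranked 13 from the bottom of the 11146 loci in that comparison. Within WT groups of 4, replicate 2 had the highest Cd86 in 7 of 8.

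Cd80 changed less, and the changes that passed the test were downward. Treated samples held 2.83, 3.79, 2.69 and 2.60 FPKM at 6 h against 4.59, 4.83, 4.15 and 4.53 FPKM in controls. At 24 h they held 3.17, 2.29 and 2.71 FPKM against 3.98, 4.52, 3.72 and 4.47 FPKM. The groups did not overlap at either time, and both differences passed the test below the 2-fold limit (log2 change -0.48 at each time, adjusted p = 0.00135 and 0.00233), although with Tukey's adjustment in an analysis of variance the later one did not (adjusted p = 0.0851). At 1 and 3 h the groups overlapped and the test was not passed (adjusted p = 0.586 and 0.117). The median ratio of Cd86 to Cd80 within WT samples was between 2.30 and 3.11 in the 5 control groups, 14.5 at 6 h of IL-4 and 1.80 at 24 h of IL-4.

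Cd40, the receptor for CD40 ligand, followed a course like that of Cd86 with a larger rise. With IL-4 it measured 27.8, 28.2, 33.8 and 29.3 FPKM at 1 h, 70.4, 59.8, 66.5 and 77.4 FPKM at 3 h and 78.7, 76.8, 84.4 and 74.6 FPKM at 6 h. The controls measured 18.3, 16.4, 13.7 and 13.8 FPKM, 12.7, 14.0, 11.98 and 11.3 FPKM and 10.3, 12.5, 10.8 and 9.52 FPKM. Groups did not overlap at any of the 3 times, and the treated means were 1.91-fold, 5.48-fold and 7.28-fold those of the controls. The log2 changes at 3 and 6 h were 2.36 (SE 0.297, adjusted p = 3.08e-08) and 2.76 (SE 0.297, adjusted p = 6.59e-10). That at 1 h was 0.90 and passed the test narrowly (adjusted p = 0.0479). Its adjusted p was above the threshold when any 1 of the 8 libraries was left out. With the replicate number as a block it was 3.2e-07.

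The rise of Cd40 was gone at 24 h. Treated samples held 6.92, 5.48 and 5.16 FPKM, and controls 8.66, 8.53, 8.79 and 6.49 FPKM, with overlap (log2 change -0.41, 95% confidence interval -1.06 to 0.24, adjusted p = 0.282), a difference that passed the test when only the samples compared were fitted (adjusted p = 0.0198). The response at 24 h differed from that at 6 h by -3.17 on the log2 scale (adjusted p = 4.06e-07), and the one at 3 h was 1.46 above that at 1 h (adjusted p = 0.016).

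Icosl, the ligand of ICOS, was lower with IL-4 at the times when Cd40 was higher. Treated WT samples held 4.61, 4.09, 4.73 and 4.61 FPKM at 3 h and 3.32, 3.48, 3.59 and 4.29 FPKM at 6 h. The controls held 9.32, 8.61, 8.69 and 9.998 FPKM and 8.83, 8.63, 8.47 and 8.79 FPKM. All treated samples were below all controls at these times and also at 1 h (4.91 ± 0.352 against 7.78 ± 0.496 FPKM, SD, n = 4 each, adjusted p = 0.213). The 1 h difference passed when only the samples compared were fitted (log2 change -0.57, adjusted p = 0.000506). The fall was called at 6 h (controls 2.36-fold higher, log2 change -1.06, SE 0.265, adjusted p = 0.00129) and passed the test below the 2-fold limit at 3 h (log2 change -0.88, adjusted p = 0.00946). Under an analysis of variance with Tukey's adjustment neither passed (adjusted p = 0.051 and 0.189), while with the replicate number as a block both did (adjusted p = 1.88e-10 and 1.57e-08).

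At 24 h Icosl had the largest fall of the members. The 3 treated samples were at 0.519, 0.515 and 0.553 FPKM and the 4 controls at 5.89, 6.15, 5.62 and 4.41 FPKM. The lowest control was thus far above the highest treated sample, and the control mean was 10.4-fold higher (log2 change -2.08, SE 0.286, adjusted p = 1.16e-07, rank 72 from the bottom of 11146 loci). The response at 24 h was lower than at 6 h (difference -1.03, adjusted p = 0.0449), a call that was lost when any 1 of 14 of the 15 libraries was left out. With the replicate number as a block and all libraries kept it was called (adjusted p = 2.1e-06).

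Cd276, which encodes the B7 family protein B7-H3, passed the test in WT at 24 h and at no earlier time. At 24 h the treated samples held 14.7, 12.8 and 11.1 FPKM and the controls 4.75, 5.11, 5.84 and 4.96 FPKM. All treated samples were above all controls, by 2.49-fold (log2 change 1.17, SE 0.18, adjusted p = 1.05e-06). At 1, 3 and 6 h the groups overlapped, and the log2 changes of -0.14, -0.24 and -0.23 did not pass the test (adjusted p = 0.718, 0.317 and 0.29). The response at 24 h exceeded that at 6 h by 1.39 (adjusted p = 2.78e-05). Replicate 4 was the lowest for Cd276 in 7 of the 8 WT groups of 4.

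**Figure D4:**
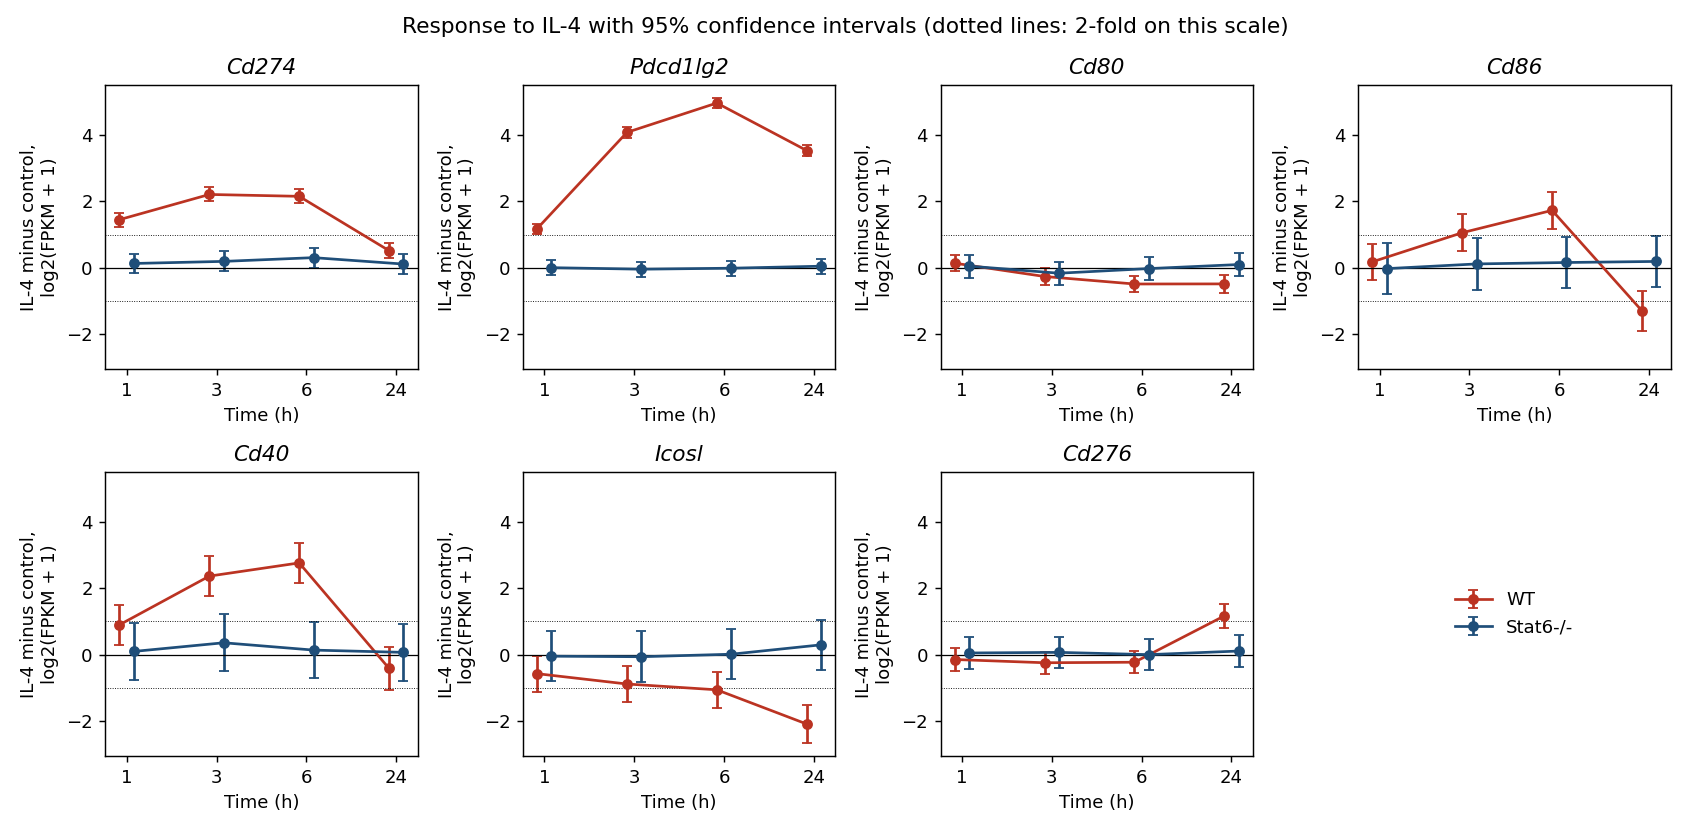
Log2(FPKM + 1) difference of IL-4 and control samples (vertical axis) by time (h) in WT and Stat6-/- cells, with 95% confidence intervals from the fit. The WT changes of Cd274, Pdcd1lg2, Cd86 and Cd40 are largest at 3 or 6 h, those of Icosl and Cd276 at 24 h, and the Stat6-/- changes lie between -0.16 and 0.36.

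Counted over the 7 members, 2 were called at 1 h in WT, where 1.49% of all tested loci were called. Both were higher (1.09% of loci). At 3 h 4 were called (3.88% of loci), all of them higher (2.61%). At 6 h 5 were called (5.54%), 4 higher (3.18%) and Icosl lower (2.36%). At 24 h 4 were called (8.50%): Pdcd1lg2 and Cd276 were higher (3.91%), Cd86 and Icosl lower (4.58%). By the adjusted p alone, 3, 5, 6 and 6 members passed at the 4 times, against 9.39%, 28.9%, 41.2% and 55.0% of all loci. The median log2 change of the members at 24 h was -0.412, and that of all tested loci was -0.069.

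Values that moved with IL-4 at 24 h in WT included the marker lists. Macrophage markers summed to 2590 to 2600 FPKM in the 3 treated samples and 3150 to 3660 FPKM in the 4 controls, and neutrophil markers to 187 to 276 FPKM against 392 to 528 FPKM, without overlap in either list. The dendritic cell list summed to 1.27 to 2.54 FPKM against 1.43 to 4.85 FPKM. Their part in the lower Cd86 and Icosl was not tested.

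From 1 to 3 h, 2 WT members had a response that grew by at least 2-fold, Pdcd1lg2 and Cd40, and 1.61% of all loci changed that much in either direction. From 3 to 6 h no member did (0.449% of loci). From 6 to 24 h all members except Cd80 did (6.06% of loci): Cd276 upward and Cd274, Pdcd1lg2, Cd86, Cd40 and Icosl downward.

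In Stat6-/- cells no member was called at any of the 4 times, and neither was any other locus, so that the share called was 0 at 1, 3, 6 and 24 h. The smallest adjusted p over all loci was 0.402 at 1 h. Unadjusted p-values under 0.05 numbered 51, 131, 88 and 37 loci at 1, 3, 6 and 24 h. With 2 samples a group and no replicate block the intervals were wide for the members with a replicate offset. For Cd40 at 3 h the log2 change was 0.36 with a 95% confidence interval of -0.49 to 1.21, and for Icosl at 24 h it was 0.30 with an interval of -0.46 to 1.06.

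The PD-1 ligands gave tighter intervals in the fit without a block. Pdcd1lg2 stayed between 0.137 and 0.373 FPKM in the 18 Stat6-/- samples, with log2 changes between -0.04 and 0.05 and no interval reaching beyond 0.27. The log2(FPKM + 1) scale compresses values this low, so a narrow interval there does not mean a narrow range of ratios. Its IL-4 to control ratios in same-numbered pairs ran from 0.669 to 1.80, with a median of 0.984. Cd274 was higher with IL-4 in 8 of 8 same-numbered Stat6-/- pairs, by 1.03 to 1.30 times. These pairs are 2 replicates over 4 times and not independent, and the share of all loci with this pattern was not counted. At 6 h it read 32.0 and 33.8 FPKM with IL-4 and 26.6 and 26.1 FPKM without, and the log2 change of 0.31 (95% confidence interval 0.01 to 0.61) did not pass after adjustment (adjusted p = 1). The intervals of Cd274 at the 4 times ended at 0.43, 0.50, 0.61 and 0.42, below the WT changes at 1, 3 and 6 h.

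The response was tested between genotypes as an interaction, the WT change minus the Stat6-/- change. At 1 h it was called for Cd274 (1.32, adjusted p = 1.73e-06) and Pdcd1lg2 (1.17, adjusted p = 3.47e-08), 2 of 7 members against 1.25% of all loci. At 3 h Cd40 was called as well (2.004, adjusted p = 0.00586), beside Cd274 (2.01) and Pdcd1lg2 (4.11), 3 members against 3.48%. At 6 h 4 members were called against 4.41%: Cd274 (1.84), Pdcd1lg2 (4.96), Cd86 (1.57, adjusted p = 0.016) and Cd40 (2.62, adjusted p = 0.000226). At 24 h 4 were called against 6.85%: Pdcd1lg2 (3.48), Icosl (-2.38, adjusted p = 0.000192), Cd86 (-1.48, adjusted p = 0.0194) and Cd276 (1.06, adjusted p = 0.00685). Cd80 also passed the test at 24 h (-0.58, adjusted p = 0.0418), as 1 of 5 members against 27.0% of loci, but not when any 1 of 6 of the 11 libraries was left out (-0.584 to -0.43). The late difference of Cd274 was 0.40 and did not pass (95% confidence interval 0.03 to 0.78, adjusted p = 0.102).

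Several of these calls were lost when 1 Stat6-/- library was left out of this fit, which has no replicate block, so that a same-numbered pair was split. The interaction of Cd40 at 3 h was 1.18 without IL-4 replicate 1 and 1.41 without control replicate 2, both uncalled. That of Cd86 at 6 h was 1.02 and 1.21 without the same libraries of 6 h, again uncalled. At 24 h, leaving out Stat6-/- IL-4 replicate 2 or control replicate 1 gave -0.87 and -0.96 for Cd86 and 0.79 and 0.61 for Cd276, none of which passed. The Stat6-/- samples of Cd276 at 24 h read 6.20 and 3.96 FPKM with IL-4 and 6.53 and 3.08 FPKM without, lower in replicate 2 both times. Neither gene passed when only the samples compared were fitted (adjusted p = 0.0659 and 0.0624). With only replicate 1 kept in all Stat6-/- groups, Cd40 at 3 h was 2.23, Cd86 was 1.76 at 6 h and -1.39 at 24 h, and with only replicate 2 kept they were 1.77, 1.38 and -1.58. Cd276 at 24 h was 1.23 with replicate 1 alone and 0.88 with replicate 2 alone.

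With the replicate number as a block, which the Stat6-/- libraries warranted, and all libraries kept, these calls of Cd40, Cd86 and Cd276 held. The adjusted p was 1.49e-09 for Cd40 at 3 h, 9.01e-10 and 4.68e-09 for Cd86 at 6 and 24 h, and 0.000117 for Cd276 at 24 h. Cd80 at 24 h again passed the test below the 2-fold limit (adjusted p = 0.000246). The interaction of Icosl at 6 h was also called (-1.07, adjusted p = 2.22e-05, against 0.114 without the block). The interaction of Cd86 at 3 h was 0.94 and passed the test with the block (adjusted p = 2.49e-05, against 0.253), as did that of Icosl at 3 h (-0.82, adjusted p = 0.00102, against 0.339). Cd40 at 1 h (0.80, adjusted p = 0.0109 against 0.737), Cd80 at 6 h (-0.46, adjusted p = 0.00285 against 0.141) and Cd274 at 24 h (0.42, adjusted p = 0.0198 against 0.102) passed it too, below the 2-fold limit.

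Without IL-4 Cd274 was the highest and Pdcd1lg2 the lowest member in both genotypes. Comparing the means over the 5 control times, no member was called between Stat6-/- and WT, and 0.287% of all loci were. By the adjusted p alone 3 members passed, against 21.4% of loci. The 10 Stat6-/- controls entered this test as independent samples although they were 2 replicates followed over 5 times. The 20 WT controls entered it in the same way and may be 4 animals over these times. No fit with the block was made for this test, so its p-values may be too small. Cd274 was higher in Stat6-/- by 0.19 (adjusted p = 0.0161), Cd86 was higher by 0.60 (adjusted p = 0.00304), and Cd276 was lower, with a difference of -0.35 (adjusted p = 0.00434). The Cd274 difference did not pass without replicate 2 of the Stat6-/- controls at 0 h (0.167) or at 1 h (0.165), and its value was 0.137 with replicate 1 alone. The neutrophil list summed to 487 to 922 FPKM in the Stat6-/- samples and to 187 to 528 FPKM in WT, and its part in these differences was not tested.

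The baseline differences of Cd86, Cd40, Icosl and Cd80 depended on which Stat6-/- replicate was used. With Stat6-/- replicate 2 alone they were 1.06, 0.67, 0.63 and 0.20. With replicate 1 alone they were 0.13, -0.24, -0.37 and -0.11, so that Cd40, Icosl and Cd80 took the opposite direction. With both, Cd40 was 0.21 and Icosl 0.13, and neither passed (adjusted p = 0.383 and 0.586). The difference of Cd276 had the same direction with either replicate, -0.31 and -0.39.

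Time in culture without IL-4 moved a few members. Between the 0 and 24 h controls of WT no member was called (1.13% of loci were), and 2 passed the test, against 17.2% of loci. Cd274 rose from 18.4, 20.5, 22.3 and 25.4 FPKM at 0 h to the values given above for 24 h (log2 change 0.60, adjusted p = 8.36e-05). Cd40 fell from 18.8, 13.8, 13.5 and 16 FPKM at 0 h to between 6.49 and 8.79 FPKM at 24 h, a log2 change of -0.85 (adjusted p = 0.0422), which did not pass when any 1 of 7 of the 8 libraries was left out. Icosl was at 8.83, 9.46, 9.52 and 10.4 FPKM at 0 h and had a log2 change of -0.70 that did not pass (adjusted p = 0.062), but did when only the samples compared were fitted (adjusted p = 0.00202).

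In the Stat6-/- controls no member was called over the same interval, and 0.161% of loci were. The log2 change of Cd40 was -1.04 (adjusted p = 0.238), and with the block it was called (adjusted p = 4.04e-05). That of Icosl was -0.67 (adjusted p = 0.396), and with the block it passed the test below the 2-fold limit (adjusted p = 0.00195). With replicate 1 alone Cd40 was at -1.25 and Icosl at -1.23, and with replicate 2 alone they were at -0.83 and -0.12. Icosl was at -1.55 without replicate 2 of the 24 h controls, which set replicate 1 against both replicates of 0 h.

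The order of the groups summed up each member's range. For Cd274 the WT groups ran from IL-4 at 3 h down through 6, 1 and 24 h of IL-4 to the controls, and neighbours overlapped in 4 of 8 steps, among them 3 h and 6 h of IL-4. For Pdcd1lg2 IL-4 at 6 h was on top, apart from 3 h, and 24 h overlapped with 3 h while 1 h stood between the later times and the controls. For Cd86 and Cd40 the order began with IL-4 at 6, 3 and 1 h and ended with 24 h of IL-4, with 5 of 8 neighbouring pairs overlapping. For Icosl the 0 h controls were highest and 24 h of IL-4 lowest. All 8 neighbouring pairs of Cd80 overlapped. In Cd276 7 of 8 pairs did, and only 24 h of IL-4 was set off, on top.

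The order of the members within a group also changed. In WT controls at 0 h the mean FPKM ran from Cd274 through Cd40, Cd86, Icosl, Cd276 and Cd80 to Pdcd1lg2. With 24 h of IL-4 it ran from Cd274 (47.9) through Pdcd1lg2 (14.5), Cd276 (12.9), Cd40 (5.85), Cd86 (4.59) and Cd80 (2.72) to Icosl (0.529). The member lowest in controls was second there, and the sample ranges of Pdcd1lg2 and Cd276 overlapped. In all 9 Stat6-/- groups Cd274 was first and Pdcd1lg2 last.

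Other genes of the same pathway were read from 4 lists of 41 receptors, ligands, adaptors and checkpoint molecules, of which 30 were tested. In WT 2, 2, 1 and 8 of the 30 were called after 1, 3, 6 and 24 h, to be read against the shares of all loci given for the members. The T cell receptors of the members, Pdcd1, Ctla4 and Icos, and the ligand Cd40lg were below 1 FPKM in all samples. Cd28 was the exception, at 17.9 ± 3.18 FPKM (SD, n = 4) in 24 h controls, while T cell markers were near 0. It fell to 7.85 ± 1.69 FPKM (SD, n = 3) with 24 h of IL-4 (log2 change -1.10, adjusted p = 0.0112).

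Among the adaptors that carry the CD40 signal, Traf5 passed the test as higher at every time. Its means with IL-4 were 7.84 FPKM at 1 h, 14.1 FPKM at 6 h and 20.4 FPKM at 24 h, against controls of 3.83, 4.49 and 4.34 FPKM. The change at 1 h was below the 2-fold limit (log2 change 0.86), and those at 3, 6 and 24 h were 1.49, 1.46 and 2.01 (adjusted p = 6.13e-14, 7.73e-14 and 1.35e-16). Traf1, a further adaptor, had a log2 change of -1.35 at 24 h (adjusted p = 0.00227). Birc3, a ubiquitin ligase bound by TRAF proteins, changed by -1.24 (adjusted p = 2.32e-09) and Map3k14, the kinase NIK, by -1.14 (adjusted p = 8.38e-14).

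Of the TNF-family costimulators, Tnfsf9 (the 4-1BB ligand) was lower with IL-4 at 1 h (1.38 against 3.94 FPKM, log2 change -1.05, adjusted p = 0.000251) and at 3 h (log2 change -1.13, adjusted p = 2.97e-05). Tnfsf14 (LIGHT) was higher at 1 h (6.935 against 2.815 FPKM, log2 change 1.05, adjusted p = 0.0394), a call lost when any 1 of 6 of the 8 libraries was left out, with a pseudocount of 0.1, without the filter and with Tukey's adjustment. It was lower at 24 h (0.313 against 2.55 FPKM, log2 change -1.42, adjusted p = 0.00119). Its receptor Tnfrsf14 changed by -1.26 at 24 h on the log2 scale (adjusted p = 1.49e-06), and the checkpoint receptor Havcr2 (TIM-3) by -1.09 (adjusted p = 0.00594). By the adjusted p alone 4 of the 30 were higher and 17 lower at 24 h, against 23.4% and 31.6% of all loci, and their median log2 change was -0.492 beside -0.069 for all loci. In Stat6-/- cells none of the 30 was called at any time.

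**Figure D5:**
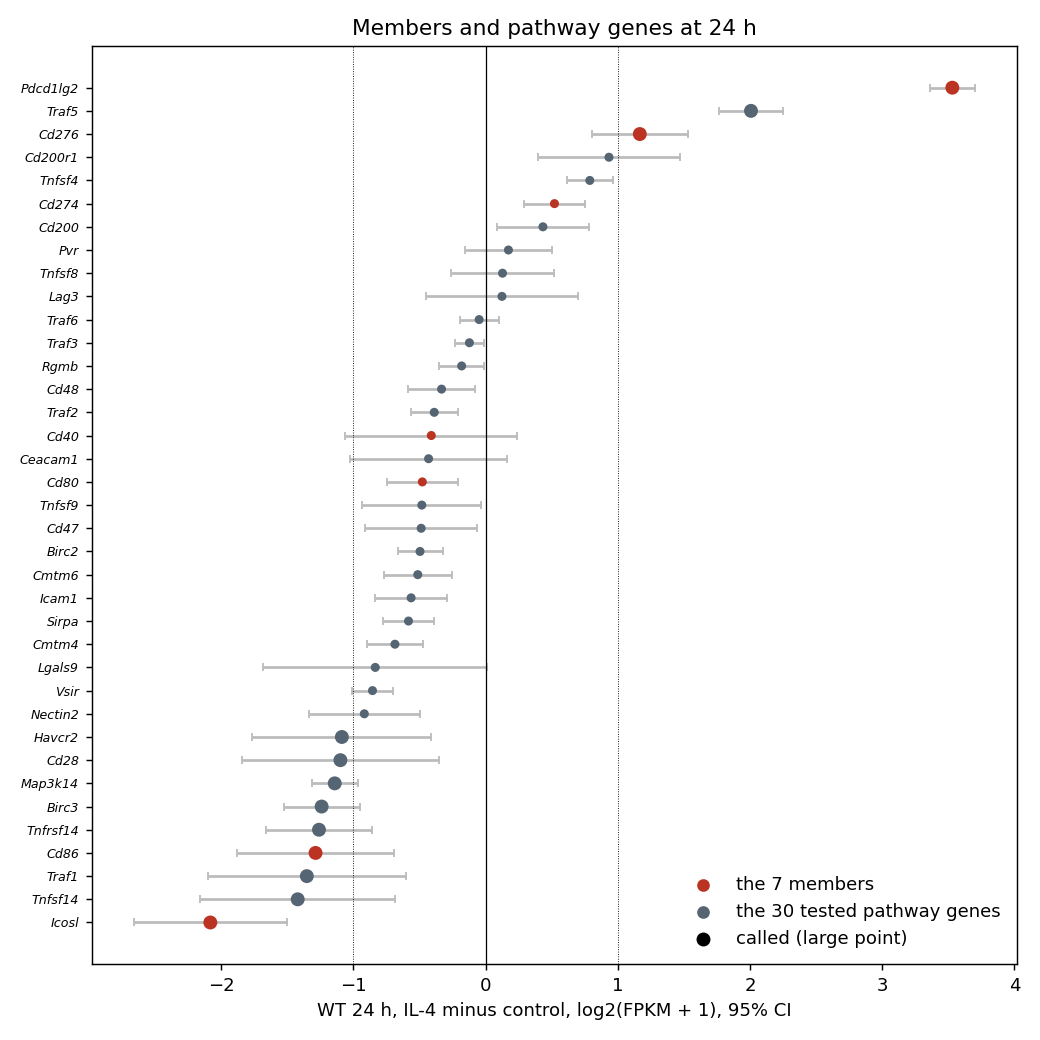
Log2(FPKM + 1) difference of IL-4 and control WT samples at 24 h (horizontal axis, with 95% confidence intervals) for the 7 members and the 30 tested genes of the pathway lists, sorted, with called genes as large points. Pdcd1lg2 and Traf5 are at the top with 3.53 and 2.01, and Icosl is at the bottom with -2.08.

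The loci whose 18 group means followed each member most closely are given as a description. Over these 18 means, which share control groups and libraries, Pearson's r with Cd274 was highest for Ier3 (0.982), Etv3 (0.972) and Olr1 (0.955). For Pdcd1lg2 the nearest were Cldn11 (0.991), Tmem26 (0.990) and Il4i1 (0.988). Cd40 was followed by Snx2 (0.980), Gda (0.975) and Glrx (0.969), and Cd86 by Ly86 (0.950), Srgap2 (0.944) and Cmtm7 (0.905). Nearest to Icosl were Rassf5 (0.977), Plxnb2 (0.972) and Cxcl16 (0.967). For Cd276 they were Lrrc27 (0.961), Ankrd13b (0.946) and Dab2ip (0.941), and those of Cd80 included Cep120 (0.914) and Zfp119a (0.909).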

How the data were processed

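Poly(A) RNA libraries were made from 1 microgram of total RNA. According to the submitters' processing notes the authors aligned reads to mm10 with TopHat2 2.0.7 and estimated FPKM with Cufflinks 2.0.2, and the deposited tables hold FPKM for 23847 loci per sample. FPKM sums were 385888.9 to 464914.9 and absolute depth is unknown, so no counting intervals are given. Loci reaching 1 FPKM in any sample were tested on log2(FPKM + 1) with limma 3.58.1 in R 4.3.3 over all 53 samples (18 group means, trended prior, 35 residual degrees of freedom), with Benjamini-Hochberg adjustment within each contrast. The method was tested on simulated data. The study describes its WT data as from 4 individual animals, so WT samples of different groups may come from the same animal. For Stat6-/- p-values measure only the spread between samples. WT with 24 h of IL-4, replicate 1, is not analysed here. Deviations of same-numbered Stat6-/- samples correlated above 0.1 in 72 of 72 pairs (mean r 0.714), so the numbers were taken to pair these samples. In a group of 2 the deviations are equal and opposite, so the pairs of replicate 2 repeat the r of those of replicate 1. All 7 members are described, neighbouring loci were those within 250 kb, and the 3 most similar loci per member are named, except 1 that is not reported here. Members and gene lists were chosen with earlier results of these data known. Alternatives were another pseudocount, no filter, quantile normalization, fewer samples in the fit, Tukey's adjustment, a replicate block and leaving out each library.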

Additional observations from a re-analysis of the deposited data

Results flagged for a closer look

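In 3 of the 56 sets of 4 samples tested, 1 WT sample lay far from the others by Dixon's criterion, where chance gives about 2.8. Cd86 read 14.09 FPKM in replicate 2 of the 3 h controls, while the others were between 10.44 and 10.98 FPKM. Cd40 read 6.486 FPKM in replicate 4 of the 24 h controls, with the others between 8.527 and 8.788 FPKM. Cd276 read 4.383 FPKM in replicate 4 of 3 h of IL-4, against 6.64 to 6.975 FPKM in the others.

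The response to IL-4 differed between WT and Stat6-/- cells by the interaction test for 14 combinations of member and time, as WT minus Stat6-/- on the log2(FPKM + 1) scale. After 1 h these were Cd274 (1.317) and Pdcd1lg2 (1.171). After 3 h they were Cd274 (2.012), Pdcd1lg2 (4.113) and Cd40 (2.004). After 6 h they were Cd274 (1.843), Pdcd1lg2 (4.964), Cd86 (1.567) and Cd40 (2.621). After 24 h they were Pdcd1lg2 (3.477), Cd276 (1.056), Cd80 (-0.5819), Cd86 (-1.483) and Icosl (-2.38). Of all tested loci, 3.36%, 11.2%, 16.5% and 27.0% passed this test at 1, 3, 6 and 24 h. Without some single libraries, Cd40 at 3 h, Cd86 at 6 h and Cd80, Cd86 and Cd276 at 24 h did not pass, as given above.

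The WT response differed between consecutive times for 10 combinations. From 1 to 3 h the differences were 0.7577 for Cd274, 2.895 for Pdcd1lg2 and 1.464 for Cd40. From 3 to 6 h the difference of Pdcd1lg2 was 0.8814. From 6 to 24 h they were -1.632 for Cd274, -1.426 for Pdcd1lg2, -3.018 for Cd86, -3.171 for Cd40, -1.028 for Icosl and 1.392 for Cd276. Of all tested loci, 11.1%, 3.31% and 27.8% passed in these 3 comparisons, in the order of time.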

How the results depend on the processing

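The number of WT members called, 2, 4, 5 and 4 at the 4 times, was the same in every leave-one-out fit. Over the alternatives and leave-one-out fits, apart from those keeping only 1 Stat6-/- replicate, 2001 values kept their side of the threshold. Another 60 no longer passed it and 25 newly passed it. No value that passed in either fit changed direction. Some that passed in neither did, such as the WT change of Cd276 from 3 to 6 h (-0.119 to 0.181 when 1 library was left out). Quantile normalization ended the passed test for Cd80 in the 24 h interaction (-0.438) and for Icosl from 6 to 24 h (-0.906), and testing all loci without the filter ended it for these and for Cd40 in WT at 1 h and between the 0 and 24 h controls. With the pathway list, 1 gene, Tnfsf9 and no longer Tnfsf14, was called at 1 h with a pseudocount of 0.1, without the filter and with Tukey's adjustment, 3 at 6 h with the pseudocount and 4 at 24 h with Tukey's adjustment. Fitted on only the samples compared, 2 members, Pdcd1lg2 and Icosl, were called in the 24 h interaction, while Icosl (WT at 1 h, and 0 to 24 h controls), Cd40 (WT at 24 h), Cd86 (1 to 3 h and 3 to 6 h) and Icosl (1 to 3 h) newly passed the test. Leaving out 1 library gave 1 to 2, 2 to 3, 1 to 2 and 7 to 8 pathway genes at the 4 times (1, Tnfsf9, at 1 h without any library except IL-4 replicate 4 and control replicate 2, and 2 at 6 h without IL-4 replicate 1 or 2 or control replicate 4), 2 to 3, 3 to 4 and 2 to 4 members in the interactions at 3, 6 and 24 h, 5 to 6 in the WT change from 6 to 24 h, and 0 to 1 in Stat6-/- controls between 0 and 24 h.

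With the replicate block, 1 member, Cd40, was called between the 0 and 24 h Stat6-/- controls. In WT, 13 of 15 time-matched same-numbered pairs correlated above 0.1 (lowest 0.0265), as did 111 of all 136 same-numbered pairs. The mean r was 0.223 for equal and -0.0743 for other numbers. Because not every time-matched pair did, the main fit did not pair these samples, and its WT tests may leave out a real pairing. The block brought Icosl at 1 h (adjusted p = 0.000108), Cd80 at 3 h (0.00276) and Cd40 at 24 h (0.00998) past the test. Keeping only 1 Stat6-/- replicate was chosen after seeing the data and leaves each Stat6-/- group with 1 library, assumed to vary like the other groups, so that it is no test of genotype. It put 2 members past the limits between the 0 and 24 h controls with replicate 1, 1 (Cd86) between genotypes with replicate 2, and the opposite direction for Cd40 (-0.242) and Icosl (-0.370) between genotypes with replicate 1. The causes of these changes, among them the part of the Stat6-/- replicate offset in the shared spread, were not tested.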
